A study of Mus musculus with 16 samples.

Results

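Open chromatin was described at 8 immediate early genes, Egr1, Egr2, Egr3, Nr4a1, Nr4a2, Nr4a3, Ier2 and Ier3, in lineage-depleted mouse bone marrow cells. Peak lists of 16 ATAC-seq libraries were merged into 83972 regions called in at least 2 libraries. Of these, 47 overlapped the gene body or the 10 kb on either side of a member gene, and 28 of the 47 were called in all 16 libraries, as were 24955 regions in all. ATAC-seq uses the transposase Tn5 to insert sequencing adapters into accessible DNA, so a peak marks DNA that the enzyme could reach; it does not measure RNA.

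The cells came from male C57Bl/6 mice, 4 made diabetic with streptozotocin, a toxin of pancreatic beta cells, and 4 non-diabetic controls. Each mouse's marrow cells were divided into a portion that received IL-1β at 10 ng/mL for 6 h and a portion that was lysed at once, which gave 4 libraries each of diabetic IL-1β, diabetic baseline, control IL-1β and control baseline cells. In all 4 groups cells positive for Gr1, Ter119, B220, CD3 or CD4 had been removed, and each library was made from 50000 cells. The IL-1β portion was also the cultured one, so the effect of IL-1β and that of 6 h in culture cannot be told apart in any comparison below. The labels name the cells haematopoietic stem cells, but the depletion as described leaves all cells without these surface proteins.

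Immediate early genes are transcribed within minutes of a stimulus without new protein synthesis. Their promoters are commonly held ready by serum response factor with its ETS-family partners and by CREB, and their inducers include growth factors, cytokines and the handling of cells. Egr1, Egr2 and Egr3 encode zinc finger transcription factors, which the corepressors Nab1 and Nab2 hold in check. Nr4a1, Nr4a2 and Nr4a3 encode orphan nuclear receptors. In mice Egr1 is known for keeping haematopoietic stem cells quiescent in the marrow, and loss of Nr4a1 together with Nr4a3 leads to myeloid leukaemia. Ier2 encodes a small nuclear protein, and Ier3 a regulator of apoptosis that is a known target of NF-κB.

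Promoter sequences are shown first for the genes whose start sites could be placed, since the promoters of the 3 receptor genes can then be read side by side. Each line gives the 250 bases before the RefSeq start site of GRCm38.p6, read 5′ to 3′ on the strand of the gene. Capitals mark the short cAMP response element motif TGACG or its reverse complement in the 3 Nr4a genes, the CArG box (the core of the serum response element) in Egr2 and the NF-κB site in Ier3.
Nr4a1: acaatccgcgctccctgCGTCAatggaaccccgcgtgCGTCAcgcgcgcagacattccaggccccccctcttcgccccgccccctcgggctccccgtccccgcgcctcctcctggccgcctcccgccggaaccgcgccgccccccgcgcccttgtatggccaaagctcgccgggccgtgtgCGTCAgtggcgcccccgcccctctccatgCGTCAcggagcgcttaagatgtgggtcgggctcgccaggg
Nr4a2: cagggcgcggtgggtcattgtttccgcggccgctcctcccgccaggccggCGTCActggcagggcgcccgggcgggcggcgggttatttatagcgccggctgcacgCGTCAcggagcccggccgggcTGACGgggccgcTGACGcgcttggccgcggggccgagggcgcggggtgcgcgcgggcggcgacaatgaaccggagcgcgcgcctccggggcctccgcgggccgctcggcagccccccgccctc
Nr4a3: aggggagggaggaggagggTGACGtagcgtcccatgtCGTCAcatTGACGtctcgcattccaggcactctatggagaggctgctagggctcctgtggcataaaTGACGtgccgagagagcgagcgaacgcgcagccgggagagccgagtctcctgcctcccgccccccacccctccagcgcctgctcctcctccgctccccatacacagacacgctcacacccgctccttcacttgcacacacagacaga
Egr2: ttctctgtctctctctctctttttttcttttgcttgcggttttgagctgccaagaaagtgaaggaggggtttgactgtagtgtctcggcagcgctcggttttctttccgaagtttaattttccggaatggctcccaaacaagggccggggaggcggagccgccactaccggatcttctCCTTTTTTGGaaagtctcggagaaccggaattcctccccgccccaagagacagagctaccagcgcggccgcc
Ier3: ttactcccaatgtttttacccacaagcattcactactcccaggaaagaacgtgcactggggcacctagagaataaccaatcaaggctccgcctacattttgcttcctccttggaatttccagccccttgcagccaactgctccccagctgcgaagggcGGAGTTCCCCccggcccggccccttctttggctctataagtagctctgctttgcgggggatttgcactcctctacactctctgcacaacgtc
The windows lie at chr15:101266596-101266845 on the plus strand for Nr4a1, chr2:57124004-57124253 on the minus strand for Nr4a2, chr4:48045055-48045304 on the plus strand for Nr4a3, chr10:67537316-67537565 on the plus strand for Egr2 and chr17:35821463-35821712 on the plus strand for Ier3. Egr2 has 5 annotated windows, and the one shown lies nearest to the peak summit.

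All 3 Nr4a promoters held 4 matches to TGACG. Among 32817 promoter windows of the same length, 17.75% held at least 1 match on either strand and 0.137% held 4 or more, a count added after the matches were seen. The CArG box of Egr2 lay 72 bases before its start site and occurred in 1.47% of windows. The NF-κB site of Ier3 lay 92 bases before its start site and occurred in 7.25% of windows. None of the 5 windows held TGACGTCA, which contains TGACG, nor GCGTGGGCG, AAAGGTCA, CCGGAAG or TGANTCA, searched on both strands. These occurred in 1.55%, 0.536%, 1.34%, 6.90% and 6.75% of all windows. The median summit of the main peak lay within its promoter window at all 5 genes, 100 bases before the start site at Nr4a1, 184 at Nr4a2, 230 at Nr4a3, 85 at Egr2 and 78 at Ier3.

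The libraries held between 37543 peaks (control IL-1β 2) and 72525 peaks (control baseline 3). The deposited lists give no total read count per library, so the depth is unknown. The number of reads at each peak summit was recovered from the deposited fold and −log10 p, and the number of reads in the 10 kb around each summit from the local background that the peak caller used. Both were scaled so that the median over the 24955 shared regions was equal in all libraries; they are called summit reads and window reads below. Diabetic baseline 4 had the lowest genome background, 0.856 reads, against 1.05 to 1.71 reads in the other libraries, and results that change without it are marked. All 10 stem and progenitor marker genes had a region in all 16 libraries, but so did 10 of 11 mature neutrophil genes, 6 of 6 monocyte genes, 3 of 5 B cell genes and 3 of 6 T cell genes. The same held for 5 of 5 dendritic cell genes and 4 of 5 erythroid genes. Cd3e, Cd8a, Ms4a1 and Ly6g had no region called in all 16. Summed summit reads over the neutrophil list ranged from 1231 to 1688 in IL-1β libraries and from 916 to 1544 in baseline libraries, with 4 of 26 regions higher and 1 lower after IL-1β. The monocyte list had 357 to 464 reads in IL-1β libraries and 318 to 413 in baseline libraries, with 2 of 13 regions higher, and the stem and progenitor list had 1035 to 1087 reads in IL-1β libraries and 1001 to 1121 in baseline libraries, with 0 of 27 changed. The B cell list had 265 to 336 reads in IL-1β libraries and 228 to 282 in baseline libraries, with 1 of 6 regions higher. No region of the T cell, dendritic cell or erythroid lists changed. Of all shared regions 6.42% rose and 3.4% fell. The part of these cells in the results was not tested, and in bulk libraries a smaller share of cells of a type and less accessible DNA per cell cannot be told apart.

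The main region of each gene was the peak at its promoter where a start site was known, and otherwise the strongest peak over an end of the gene body or, at Egr3, the nearest one called in all 16 libraries. At Ier3 a stronger region covers the 3′ end of the gene (chr17:35822812-35823824) and overlaps its neighbour Flot1; its summit reads changed by 0.13 (SE 0.072, adjusted p = 0.309, limma). All 8 main regions were called in all 16 libraries. On the scale of mean summit reads, Egr1 was highest with 97.2 (chr18:34860315-34861725), followed by Nr4a1 with 94.5 (chr15:101265929-101267152), Ier2 with 91.2 (chr8:84661492-84663125), Nr4a3 with 80.5 (chr4:48044589-48045478), Nr4a2 with 79.0 (chr2:57123129-57124439), Egr3 with 63.9 (chr14:70074452-70075478), Egr2 with 63.6 (chr10:67536640-67537992) and Ier3 with 50.3 (chr17:35821192-35822182). These coordinates are in GRCm38 (mm10). The region of Egr3 lies 1839 bp outside the gene body. Among the 9939 shared regions within 1 kb of a gene end, these levels stood between the 35.6th percentile for Ier3 and the 77.7th for Egr1. Neighbours in this order overlapped in their ranges over libraries. Of the 47 regions, 59.6% were called in all 16 libraries, against 29.7% of all regions.

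At the main regions, summit reads showed no change after IL-1β that passed the test with median scaling. Summit reads of the Egr1 region were 101, 80.4, 101 and 103 in diabetic IL-1β, 105, 99.1, 100.1 and 108 in diabetic baseline, 82.6, 92.0, 95.2 and 98.1 in control IL-1β and 97.4, 96.9, 86.6 and 110 in control baseline libraries. The groups overlapped, and the log2 change over both phenotypes was −0.095 (SE 0.072, adjusted p = 0.465, limma). The Nr4a1 region had 97.6, 77.6, 102 and 96.2 summit reads in diabetic IL-1β, 104, 98.1, 87.3 and 102 in diabetic baseline, 84.2, 100.2, 85.6 and 85.7 in control IL-1β and 97.4, 104, 92.0 and 99.1 in control baseline libraries. These groups overlapped too, with a log2 change of −0.11 (SE 0.072, adjusted p = 0.395, limma). With cyclic loess scaling both regions passed the test as lower after IL-1β, with log2 changes of −0.17 at Egr1 (adjusted p = 0.0279) and −0.18 at Nr4a1 (adjusted p = 0.0252), and with scaling to the genome background they did so with −0.36 at Egr1 (adjusted p = 0.0473) and −0.38 at Nr4a1 (adjusted p = 0.0411). Scaling to the genome background moves the change of every region by the same amount. With it the median change of all 24955 shared regions was −0.24, against 0.026 with median scaling, and 9.39% fell and 0.813% rose. With median scaling the other 6 main regions had log2 changes between −0.084 (Ier2, SE 0.078) and 0.027 (Egr3, SE 0.084), with adjusted p-values from 0.572 to 0.99. The summed reads of all summits in the Ier2 region, which covers most of its body, fell by 0.46 (adjusted p = 0.00487), while its highest summit did not pass the test.

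Among the receptors, Nr4a2 and Nr4a3 shared a high library. The Nr4a2 main region had 76.4, 72.0, 84.6 and 89.9 summit reads in diabetic IL-1β, 66.4, 85.1, 71.3 and 125 in diabetic baseline, 65.4, 69.0, 80.9 and 88.8 in control IL-1β and 71.4, 74.3, 70.4 and 73.6 in control baseline libraries. Diabetic baseline 4 stood above all others, and the groups otherwise overlapped. The Nr4a3 main region had 74.3, 65.4, 88.3 and 106 in diabetic IL-1β, 77.5, 82.2, 71.3 and 115 in diabetic baseline, 70.3, 73.1, 82.1 and 81.6 in control IL-1β and 67.5, 74.3, 77.8 and 81.5 in control baseline libraries. Diabetic baseline 4 was again the highest library. Without it the log2 changes were 0.091 at Nr4a2 (adjusted p = 0.43) and 0.062 at Nr4a3 (adjusted p = 0.644), and the sign of both turned. At Ier3 the same library was the lowest, with 30.5 summit reads, against 46.5 to 65.4 in the other diabetic baseline libraries.

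The genes also differed in how many regions surrounded them. Nr4a1 had 11 regions, 7 of them called in all 16 libraries, and all 5 regions of Egr1 and all 3 of Egr2 were called in all 16. Egr3 had 6 regions, of which only the main one was called in all 16, and 4 were called in 2 to 11 libraries. Nr4a2 had 6 regions (4 in all 16), Ier2 had 6 (2 in all 16), and Nr4a3 and Ier3 had 5 each (3 in all 16).

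**Figure D1:**
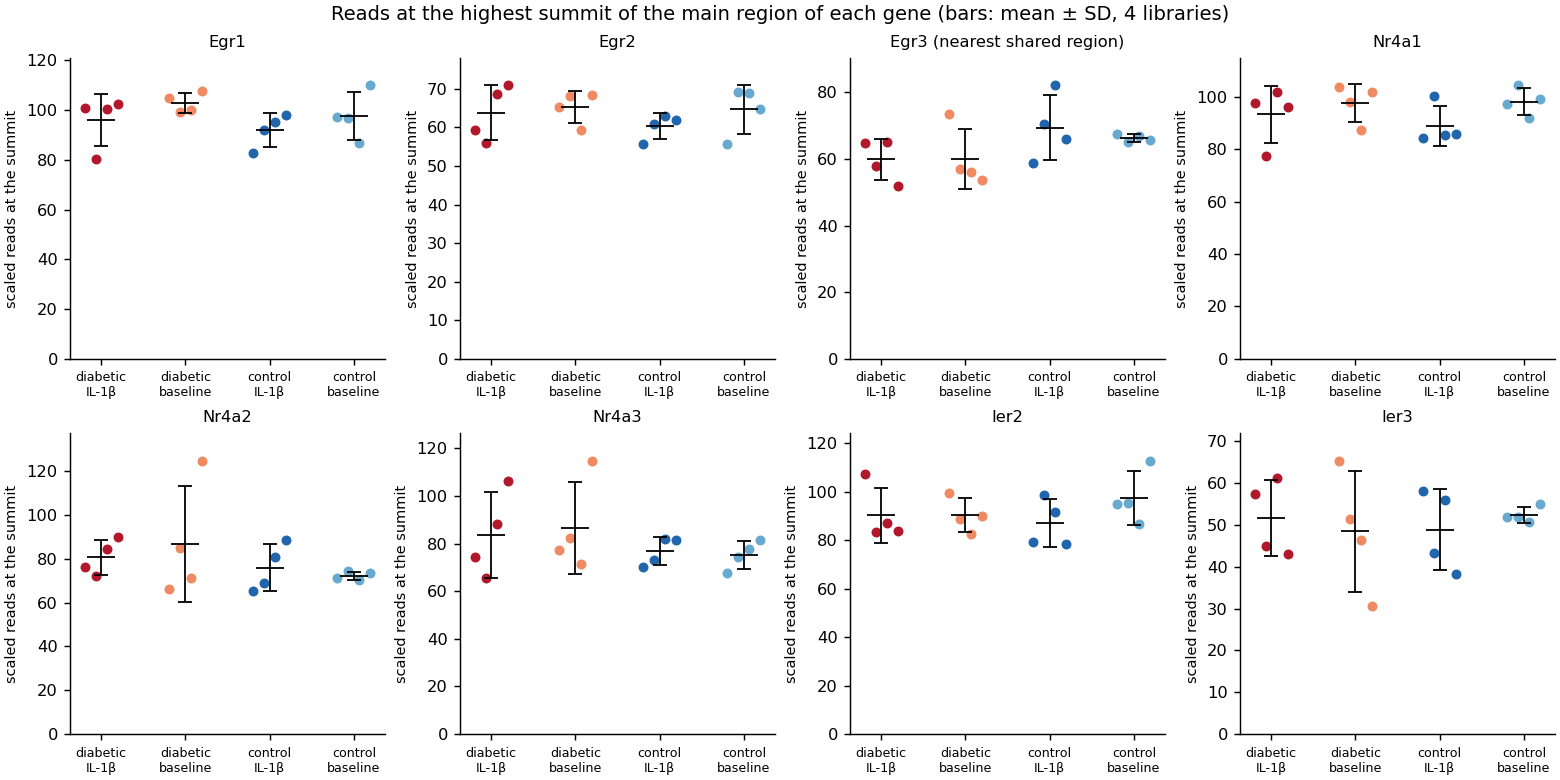
Scaled summit reads at the main region of each of the 8 genes, one point per library, with mean and SD in diabetic IL-1β, diabetic baseline, control IL-1β and control baseline libraries. The IL-1β libraries overlap the baseline libraries at every gene, and Egr1 spans 80.4 to 110 reads.

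Over both phenotypes, 1 of the 28 shared member regions passed the test on summit reads, and it fell. Across all 24955 shared regions 6.42% rose and 3.4% fell. The region lies at the far 5′ end of the Nr4a1 body (chr15:101253830-101254384), 12632 bp from the main summit of the gene. It had 40.3, 28.0, 30.7 and 55.7 summit reads in diabetic IL-1β, 54.4, 43.9, 48.1 and 46.5 in diabetic baseline, 29.4, 31.1, 41.6 and 22.7 in control IL-1β and 41.6, 47.6, 50.1 and 55.9 in control baseline libraries. The highest value after IL-1β, in diabetic IL-1β 4, overlapped the baseline range, and the other 7 IL-1β libraries lay at or below 41.6. The log2 change was −0.52 (SE 0.13, adjusted p = 0.0144, limma), and leaving out any 1 library gave −0.61 to −0.45 with adjusted p-values from 0.0027 to 0.039. On the deposited fold the change was −0.29 and did not pass the test (adjusted p = 0.194). By phenotype the change was −0.37 (SE 0.19) in diabetic mice and −0.67 (SE 0.19) in control mice, neither past the test, and their difference was 0.30 (SE 0.27, adjusted p = 1).

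With the mouse as a block, 3 of 28 member regions passed, 1 higher and 2 lower, where 9.62% of all regions rose and 5.19% fell. The added regions were one inside the Nr4a1 body, 4038 bp before the main summit in coordinate order, which fell by 0.32 (adjusted p = 0.0464 with the block and 0.104 without), and one inside the Nr4a2 body (chr2:57116350-57117185), which rose by 0.37 (adjusted p = 0.0478 with the block and 0.121 without). The Nr4a2 body region had 45.6, 45.8, 45.4 and 58.2 summit reads in diabetic IL-1β, 23.2, 32.7, 28.8 and 49.4 in diabetic baseline, 44.2, 25.7, 28.5 and 38.2 in control IL-1β and 23.6, 32.6, 32.5 and 33.4 in control baseline libraries. The diabetic baseline libraries lay below the diabetic IL-1β libraries except for diabetic baseline 4. Without diabetic baseline 4, 4 of 28 member regions passed the unblocked test, 2 in each direction, where 11.1% of all regions rose and 5.9% fell, and this Nr4a2 region rose by 0.47 (adjusted p = 0.0101). The Egr1 region 5457 bp below the body, on the side of lower coordinates, had the largest change of that gene, 0.27 (SE 0.096, adjusted p = 0.0794).

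The largest rises stood away from the main regions, in 2 regions that were missing from 1 or 2 libraries and so entered only the fit on regions called in at least 12 libraries. In that fit 2 of 35 member regions rose and 1 fell, close to the shares of all 40976 regions, of which 6.23% rose and 3.07% fell. Both risen regions are named here after their values were seen. A region past the 3′ end of Nr4a2 (chr2:57102418-57102972), 3858 bp from the body, had 18.0, 18.7, 19.6 and 22.8 summit reads in diabetic IL-1β, 8.1, 6.5, 8.0 and 13.1 in diabetic baseline, 20.4, 26.2 and 15.5 in control IL-1β and 10.2, 5.8 and 9.5 in control baseline libraries. It was not called in control IL-1β 2 and control baseline 4, which the fit dropped for this region. Among the libraries with a call, the IL-1β and baseline values did not overlap. How many of all regions separate in this way on summit reads was not counted, so the separation is not read as particular to this region. The log2 change was 1.24 (SE 0.19, adjusted p = 0.000129, limma), higher in 6 of 6 mice with both libraries. Alternatives gave 0.71 to 1.34, with adjusted p-values from 7.26e-06 to 0.00842.

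The other region lies 7698 bp before the Ier3 body (chr17:35813181-35814015). It had 18.0, 26.2, 22.1 and 22.8 summit reads in diabetic IL-1β, 12.1, 16.8 and 8.8 in diabetic baseline, 29.4, 17.6, 27.4 and 23.8 in control IL-1β and 14.1, 7.5, 14.2 and 9.8 in control baseline libraries, and was not called in diabetic baseline 4. The values did not overlap between IL-1β and baseline libraries with a call. The share of all regions that separate so was not counted, and the separation is not read as particular to this region. The log2 change was 0.99 (SE 0.18, adjusted p = 0.000839, limma), higher in 7 of 7 mice with both libraries, and alternatives gave 0.56 to 1.38 with adjusted p-values from 8.4e-05 to 0.0275. At these levels the unscaled counts were 7 to 36 reads a library, and a library in which the region was not called has no value rather than a low one.

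**Figure D2:**
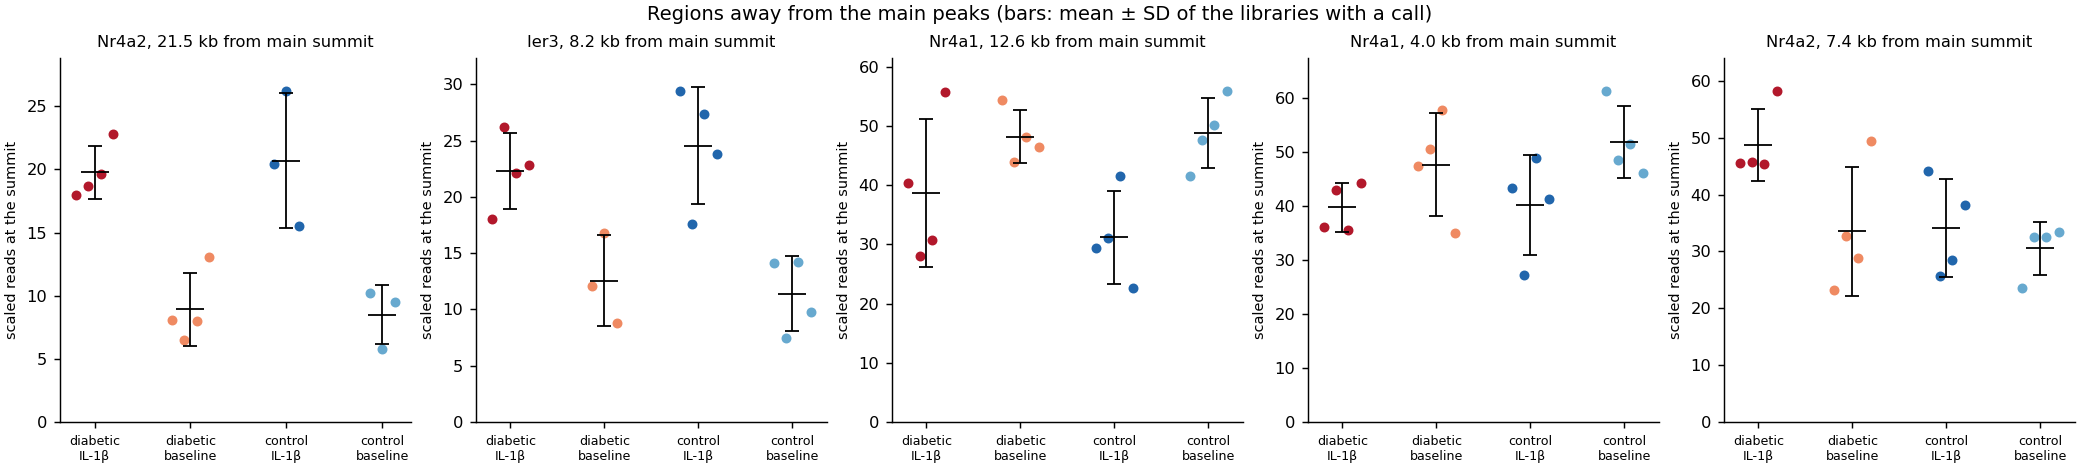
Scaled summit reads in each library at 5 member regions away from the main peaks, with mean and SD in the 4 groups; a library without a call has no point. At the regions past Nr4a2 and before Ier3 the IL-1β libraries with a call (15.5 to 26.2 and 17.6 to 29.4 reads) lie above the baseline libraries with a call (5.8 to 13.1 and 7.5 to 16.8 reads). The share of all regions that separate in this way was not counted.

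In the wider neighbourhood of Egr1, Nr4a1 and Ier2 reads fell, while the summit reads of their main regions did not pass the test with median scaling. Window reads fell after IL-1β in 14 of the 28 shared member regions and rose in 0, where 8.74% of all shared regions fell and 10.2% rose. The 14 were 3 of 5 regions at Egr1, 2 of 3 at Egr2, 7 of 7 at Nr4a1 and 2 of 2 at Ier2, and 0 of the 11 at Egr3, Nr4a2, Nr4a3 and Ier3. Those at Nr4a1 include regions nearest to the neighbouring gene Atg101. One (chr15:101283263-101283534) lies 767 bp from Atg101 and 8468 bp from the Nr4a1 body, and another (chr15:101283726-101284621) overlaps Atg101. The Egr2 region that did not pass overlaps the neighbouring gene Ado. Windows of neighbouring summits overlap and count the same reads, so the 14 are not separate events. This readout was added after the data were seen. In the fit on regions called in at least 12 libraries, window values were also higher after IL-1β at the risen regions past Nr4a2 and before Ier3. Their log2 changes were 0.69 (SE 0.084, adjusted p = 1.49e-05, limma) and 0.54 (SE 0.13, adjusted p = 0.00501, limma). Past Nr4a2 the local background of several baseline libraries, among them diabetic baseline 4 (0.856 reads), was the genome background itself. Such a value is not a count of reads in the 10 kb, so the size of that change was not measured. Further windows fell in that fit at Nr4a1 (−0.21 and −0.25) and at Ier2 (−0.50).

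At Egr1 the 10 kb window, which takes in the whole gene body, held 1092, 1036, 985 and 1021 reads in diabetic IL-1β, 1529.8, 1449, 1420.2 and 1325 in diabetic baseline, 1025, 933, 1115 and 1044 in control IL-1β and 1612, 1959, 1559.7 and 1805 in control baseline libraries. All 8 IL-1β libraries lay below all 8 baseline libraries, and the control baseline libraries were the highest. The log2 change was −0.61 (SE 0.058, adjusted p = 1.07e-06, limma), lower in 8 of 8 mice. At Nr4a1 the window around the main summit held 564, 483, 487 and 469 reads in diabetic IL-1β, 817, 713, 756 and 563 in diabetic baseline, 546, 472, 537 and 483 in control IL-1β and 850.03, 967, 859 and 881 in control baseline libraries. Only diabetic baseline 4 overlapped the IL-1β range, and the log2 change was −0.65 (SE 0.069, adjusted p = 3.14e-06, limma).

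At Ier2 the window held 1173, 1165, 1084 and 1103 reads in diabetic IL-1β, 1635, 1514, 1458 and 1170.4 in diabetic baseline, 1223, 1167, 1194 and 1212 in control IL-1β and 1686, 2043, 1564 and 1743 in control baseline libraries. Again only diabetic baseline 4 overlapped the IL-1β range, and the log2 change was −0.44 (SE 0.067, adjusted p = 0.000118, limma). The window of the next Ier2 region, 2385 bp higher in coordinate order, fell by 0.54 (SE 0.066, adjusted p = 1.17e-05). Complete separation of the 8 IL-1β libraries below the 8 baseline libraries held for 3 of 28 member windows, 2 at Egr1 and 1 at Ier2, and for 2.2% of all shared regions.

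**Figure D3:**
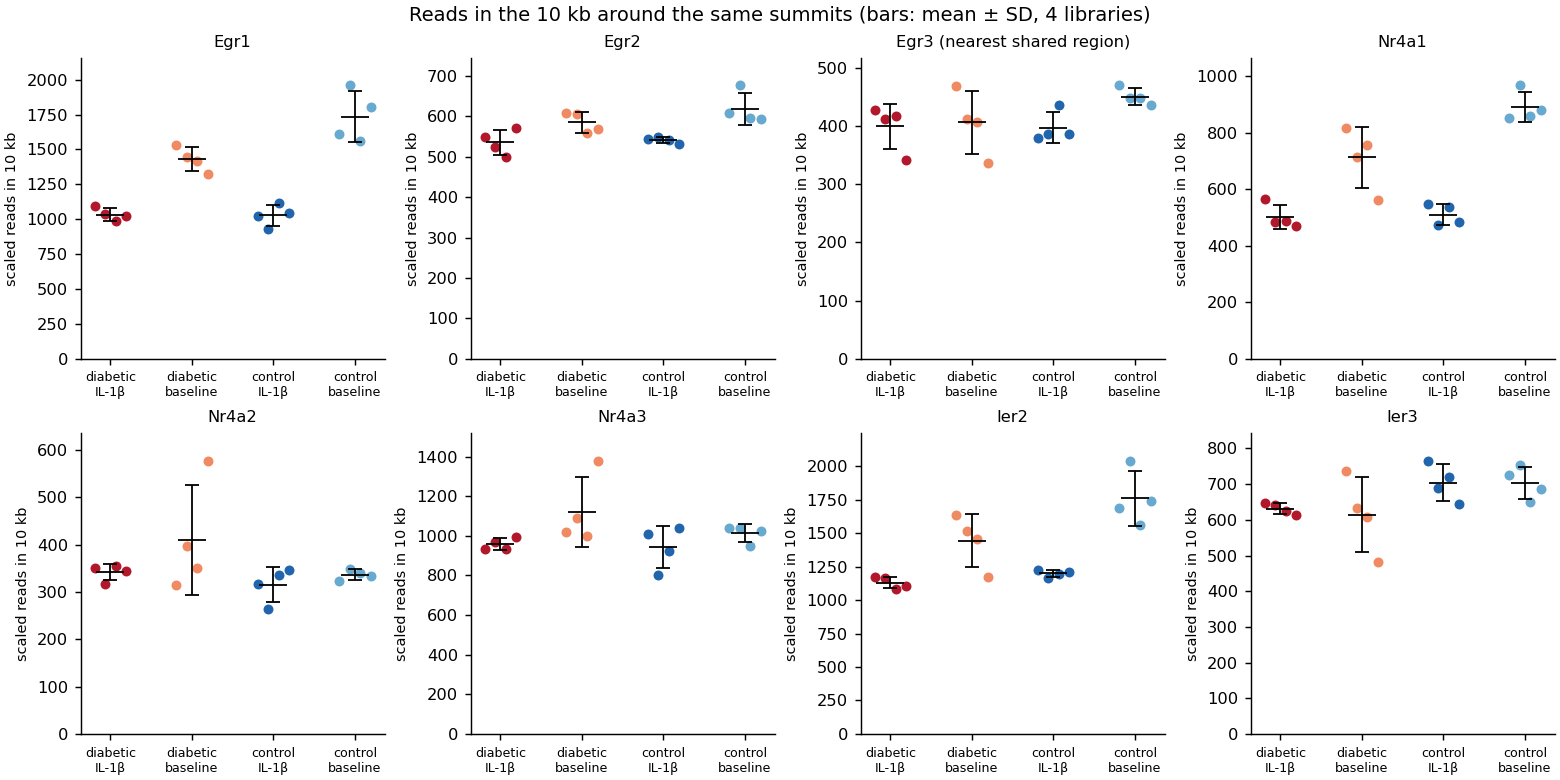
Scaled reads in the 10 kb around the main summit of each of the 8 genes, one point per library, with mean and SD in the 4 groups. IL-1β libraries lie low at Egr1 (933 to 1115 against 1325 to 1959 reads at baseline), Nr4a1 and Ier2, and overlap the baseline libraries at the other 5 genes.

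The fall was steepest near the main peaks of Egr1 and Nr4a1 and smaller further out. At Egr1 the log2 change was −0.61 at the main summit, −0.52 at 862 bp from it, −0.19 at 4460 bp and −0.066 (adjusted p = 0.443) at 6160 bp. At Nr4a1 it was −0.65 at the main summit, −0.43 at 4038 bp below it, and −0.15 to −0.23 in the 5 regions 9722 to 20282 bp away, whose windows hold few or none of the reads of the main window. The far Nr4a1 values are less firm, since the windows 12632 and 9722 bp from the main summit lost the call in 8 and 13 of 16 fits that each left out 1 library, and the window 20282 bp away lost it without diabetic IL-1β 3 (adjusted p = 0.0628) and without control IL-1β 2 (adjusted p = 0.0547). With the mouse as a block the windows 12632 and 9722 bp away kept the call (limma, adjusted p = 0.00631 and 0.0108). That fit called 15 of 28 member windows lower and 0 higher, where 2813 of 24955 shared regions fell and 3184 rose. Its added window was at Nr4a3 (chr4:48042695-48043698), with a change of −0.17 (adjusted p = 0.0465). At Egr2 both windows near the start fell by 0.16 (adjusted p = 0.0191 and 0.0208), and with scaling to the genome background neither passed (adjusted p = 0.0571 and 0.0601). Both also lost the call without diabetic IL-1β 3 (adjusted p = 0.0507 and 0.0543). Nr4a2 (−0.16, SE 0.095), Nr4a3 (−0.16, SE 0.068), Egr3 (−0.10, SE 0.066) and Ier3 (0.028, SE 0.069) did not pass at their main windows. With scaling to the genome background 7 of 28 member windows fell and 0 rose, where 9.84% of all regions fell and 1.5% rose, and that scaling moved the median change of all shared regions by −0.15. The 7 were 2 at Egr1, 3 at Nr4a1 and 2 at Ier2, and the calls it ended were the Egr1 window 4460 bp from the main summit (adjusted p = 0.0633), those of Egr2 and 4 of the far Nr4a1 windows (adjusted p = 0.0534 to 0.068).

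**Figure D4:**
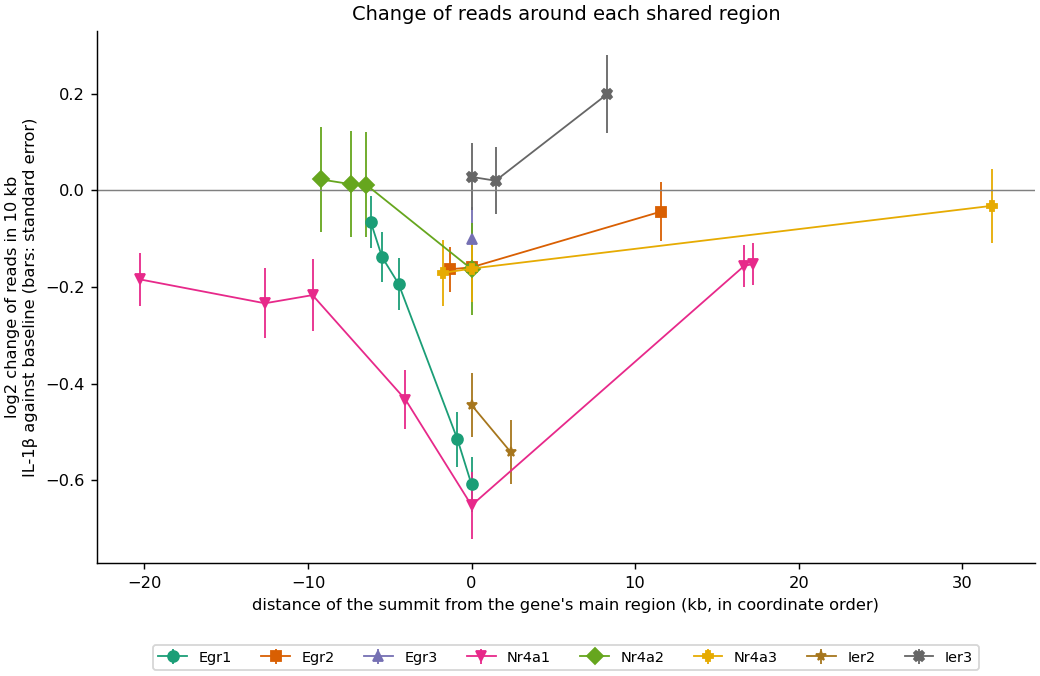
Log2 change of window reads after IL-1β against baseline, with standard error, by distance of each of the 28 shared member regions from the main summit of its gene. Egr1 and Nr4a1 are lowest at distance 0 (−0.61 and −0.65), and the 3 Ier3 regions lie above 0 (0.020 to 0.20).

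The deposited fold moved the other way at Egr1, Nr4a1 and Ier2. The fold is the summit reads divided by the local background, so it rises when the surrounding reads fall. It rose after IL-1β in 8 of 28 member regions and fell in 0, where 3.92% of all shared regions rose and 2.2% fell. The 8 include the Nr4a2 body region (chr2:57116350-57117185), with 0.36 (adjusted p = 0.0243, limma), whose window reads did not pass the test (0.012, SE 0.11). At Egr2, where 2 windows fell, the fold changed by 0.17 and 0.093 and did not pass (limma, adjusted p = 0.326 and 0.589). The Egr1 region had a fold of 5.38, 5.05, 5.81 and 5.92 in diabetic IL-1β, 4.43, 4.51, 4.73 and 5.78 in diabetic baseline, 5.51, 5.60, 5.55 and 6.20 in control IL-1β and 4.41, 3.68, 3.66 and 4.05 in control baseline libraries. All 8 mice had the higher fold in the IL-1β library, with a log2 difference of 0.51 (SE 0.10, adjusted p = 0.00395, limma). The Nr4a1 region averaged a fold of 10.4 ± 0.83 in diabetic IL-1β, 8.95 ± 1.88 in diabetic baseline, 10.4 ± 0.70 in control IL-1β and 7.50 ± 0.54 in control baseline libraries (SD, n = 4 each). The log2 change there was 0.50 (SE 0.11, adjusted p = 0.00699, limma). At Ier2 the change was 0.36 (SE 0.11, adjusted p = 0.049). At these 3 genes summit reads did not rise, so a larger deposited fold there went with fewer reads around the peak rather than more reads in it.

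**Figure D5:**
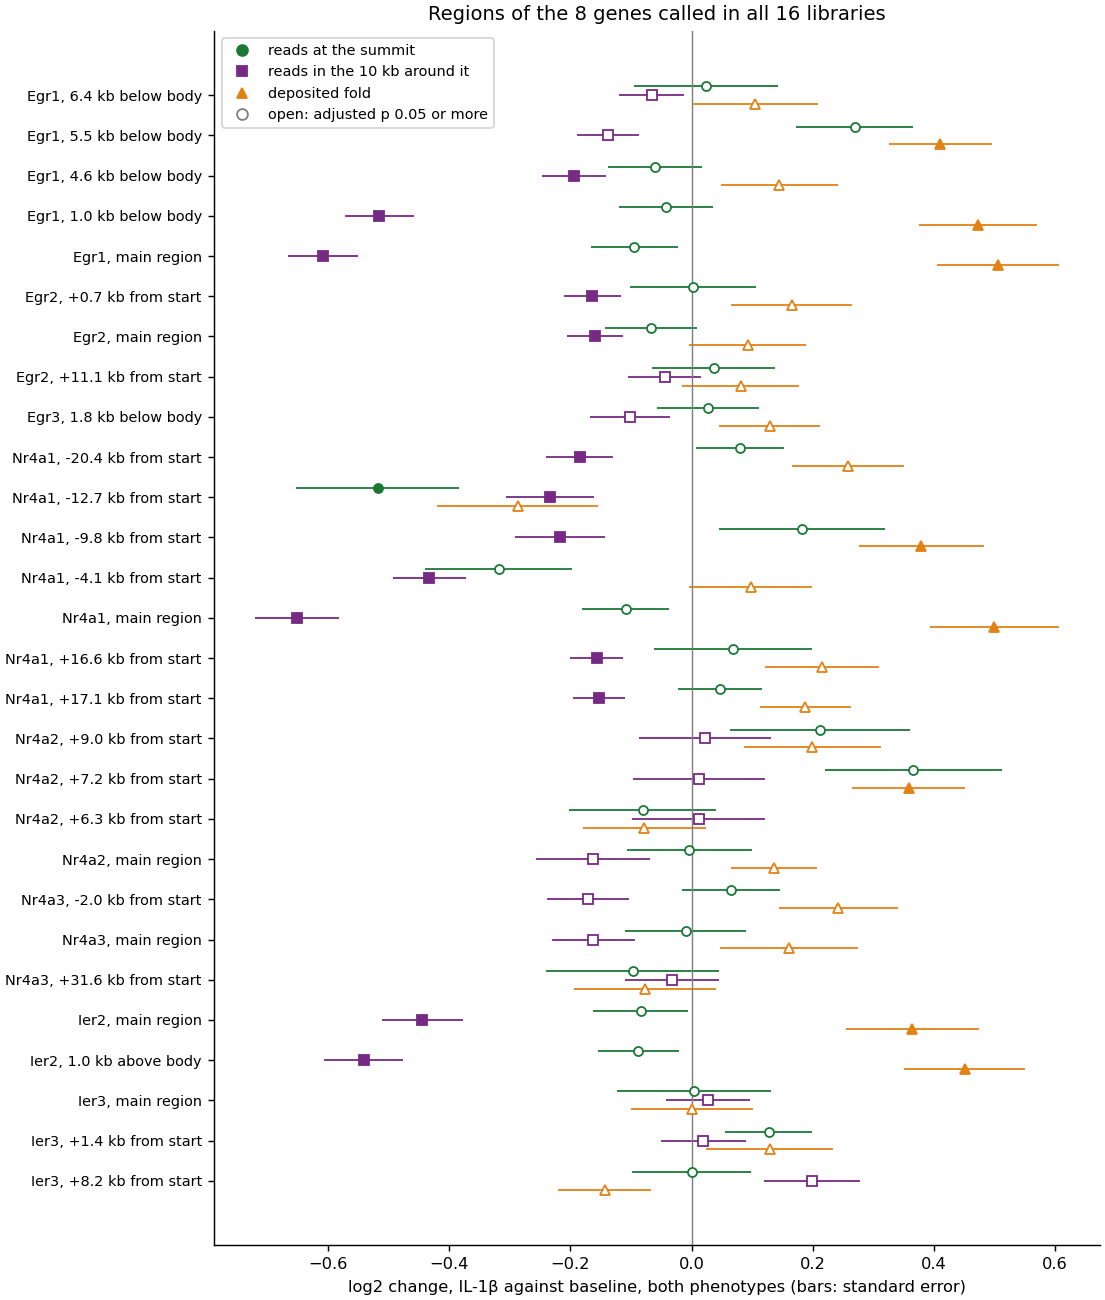
Log2 change after IL-1β against baseline, with standard error, in summit reads, window reads and deposited fold for the 28 shared member regions. At the main regions of Egr1 (−0.095, −0.61 and 0.51) and Nr4a1 (−0.11, −0.65 and 0.50) window reads and fold part in opposite directions.

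By phenotype, the window change at the 3 genes had the same sign in diabetic and control mice. In diabetic mice 6 of 28 member windows fell, where 2.72% of all shared regions fell and 3.54% rose. In control mice 11 of 28 fell, where 3.77% fell and 4.26% rose. With scaling to the genome background 0 of 28 fell in diabetic mice, where 0.437% of all regions fell and 0.0962% rose, and 6 of 28 in control mice, where 2.31% fell and 0.264% rose. The 11 in control mice also became 6 without control IL-1β 1, control IL-1β 2 or control baseline 2. The log2 change at Egr1 was −0.47 in diabetic mice (adjusted p = 0.00198) and −0.75 in control mice (adjusted p = 1.66e-05). At Nr4a1 it was −0.50 in diabetic mice (adjusted p = 0.00472) and −0.80 in control mice (adjusted p = 4.94e-05), and at Ier2 −0.34 in diabetic mice (adjusted p = 0.0368) and −0.55 in control mice (adjusted p = 0.00117). The difference between the phenotypes, diabetic minus control, was 0.28 (SE 0.12) at Egr1, 0.31 (SE 0.14) at Nr4a1 and 0.20 (SE 0.13) at Ier2, each with an adjusted p of 1 (limma). On summit reads 0 of 28 member regions passed within diabetic mice, where 2.19% of all regions rose and 0.641% fell, and 0 of 28 within control mice, where 1.78% rose and 0.97% fell.

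Diabetic and control cells were not told apart at any member region by either readout. Summit and window reads gave 0 of 28 at baseline, after IL-1β and for the difference of the IL-1β response, and 0.0% of the 24955 shared regions passed in each of these 6 fits (limma). At baseline the difference of window reads, diabetic minus control, was −0.27 (SE 0.082) at Egr1, −0.33 (SE 0.098) at Nr4a1 and −0.29 (SE 0.095) at Ier2, each with an adjusted p of 0.277. This result rests on 1 library. Without diabetic baseline 1, 5 member windows were lower in diabetic mice, among them Egr1 (−0.31, adjusted p = 0.0447), Nr4a1 (−0.40, adjusted p = 0.0353) and Ier2 (−0.35, adjusted p = 0.0411), and 1508 shared regions passed, 1175 of them lower.

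No difference of calls at these genes passed the test after adjustment. The number of libraries with a call differed by 4 or more of 8 between IL-1β and baseline in 5 of 47 regions, 2 with more calls after IL-1β and 3 with fewer, where 1.98% of all regions had more and 7.78% had fewer. A region at Ier2 (chr8:84659981-84660566) was called in 0 of 8 IL-1β and 5 of 8 baseline libraries, with a fold of 1.76 to 2.34 where called. Egr3 (chr14:70076724-70076995) and Nr4a3 (chr4:48074832-48075205) had regions called in 4 of 8 IL-1β and 8 of 8 baseline libraries. The regions with more calls were at Egr3 (chr14:70084247-70084559), with 7 of 8 IL-1β and 3 of 8 baseline libraries, and past the 3′ end of Nr4a2 (chr2:57102980-57103289), beside the region that rose there, with 5 of 8 IL-1β and 1 of 8 baseline libraries. Fisher's exact test, two-sided and adjusted over the 83972 regions, called 0 of them (smallest adjusted p = 0.204). At an unadjusted p below 0.05 it gave 921 regions gained and 2545 lost, and among the members 0 gained and 1 lost. With 37543 peaks kept in each library, the Ier2 region was called in 0 IL-1β and 1 baseline libraries. In that setting another Ier2 region (chr8:84656739-84657148) had 8 IL-1β and 1 baseline calls. Peaks were kept there by their q, which rests on the local background and so can rise when the surrounding reads fall. At this Ier2 region summit reads overlapped, with 31.9 to 43.3 in IL-1β and 29.4 to 36.1 in baseline libraries with a call. Its window reads changed by −0.50. The risen Nr4a2 region had 7 and 1, the risen Ier3 region 8 and 2, and Egr1 5457 bp below the body 8 and 2. Regions at Nr4a1 (7 and 3) and Ier2 (4 and 0) also had more calls after IL-1β, and the widest loss was at Egr3 (chr14:70076724-70076995, 2 and 5). The shares of all regions were not counted there, so these counts are not a result about the members. The adjusted test called 0 member regions.

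The 38 other immediate early genes had 102 shared regions, of which 8 rose and 9 fell on summit reads and 11 rose and 48 fell on window reads, where 6.42% of all shared regions rose and 3.4% fell on summit reads and 10.2% rose and 8.74% fell on window reads, with a median window change of −0.16 against −0.0010 over all shared regions. The largest falls in window reads were at Fosb, a subunit of the AP-1 transcription factor, with 507 ± 23.6 reads after IL-1β and 1786 ± 351 at baseline (SD, n = 8 each), a log2 change of −1.80 (adjusted p = 5.41e-12), at Fos, its relative (−1.51, adjusted p = 1.78e-09), and at the MAP kinase phosphatase gene Dusp1 (−1.24, adjusted p = 6.81e-07). The largest rises were at Dusp5 (0.58), Mcl1 (0.55) and Sik1 (0.50). On summit reads the largest changes were falls at regions of Dusp1 (−0.84), Fosb (−0.64) and Fos (−0.54), and rises at Sik1 (0.91), Btg2 (0.74) and another region of Dusp1 (0.56). With scaling to the genome background 44 of 102 windows fell and 1 rose, beside the 9.84% and 1.5% of all regions given above.

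The list of 17 regulators and partners had 48 shared regions. On summit reads 4 rose and 1 fell, and on window reads 8 rose and 2 fell, to be read against the same shares of all regions. Nab2, the corepressor of EGR proteins, rose on summit reads to 58.2 ± 5.98 after IL-1β, against 36.0 ± 6.06 at baseline (SD, n = 8 each), a log2 change of 0.71 (adjusted p = 0.000106, limma). The MAP kinase genes Mapk3 (0.49) and Map2k1 (0.44) rose as well. On window reads the largest rises were at Nfkb1 (0.69), Elk3 (0.54) and Mapk3 (0.46), and the falls were at Rxra (−0.24), a partner of the Nr4a receptors, and Srf (−0.20), the serum response factor. With scaling to the genome background 0 regions of this list rose on summit reads and 4 fell, where 0.813% of all regions rose and 9.39% fell, and 1 rose and 1 fell on window reads.

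As a description of likeness, the region elsewhere whose log2 summit reads followed each main region most closely over the 16 libraries was named by its nearest gene. It was at Atp13a3 for Egr1 (Pearson r = 0.884), Ccdc88c for Egr2 (0.815), Cd33 for Egr3 (0.944), Srgn for Nr4a1 (0.814), Acbd7 for Nr4a2 (0.954), Cct8 for Nr4a3 (0.919), Inpp5d for Ier2 (0.839) and Gusb for Ier3 (0.901). Each is the highest of all shared regions on other chromosomes or at least 50 kb away, and all points share the same libraries and scaling.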

How the data were processed

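ATAC-seq peaks were deposited for each of 16 libraries. Per the submitters' processing notes, the build was mm10 and the tools named were MACS2 2.1.1, Bowtie2 2.2.6, edgeR, DiffBind 2.4.8, Trim Galore 1.8 and FastQC 0.11.3. The deposited lists give a score, a fold (ratio) over local background, and −log10 p and q values. Reads at the summit and in the surrounding 10 kb were recovered from fold and −log10 p and were whole within 0.001 and 0.05. Peaks were merged across libraries. Log2 scaled reads were tested with limma 3.58.1 (R 4.3.3) on 24955 regions in all 16 libraries, with Benjamini-Hochberg adjustment over them. On simulated data the fit recovered 188 of 200 changed regions, with 6 false calls. The changes planted there, with fitted means of 1.03 and −1.01 on the log2 scale, were larger than those of the shared member regions. All simulated libraries were independent and had the same spread. The recovery of smaller changes was not simulated. Regions were named by rule: main peaks, called members, the largest change per gene and call differences of 4 or more.

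Members and lists were chosen with earlier results of these data known. Each mouse's cells were split, so the same number in a phenotype is the same mouse. Deviations of paired libraries correlated at −0.036 to 0.419. DNA fragments above 1200 bp were excluded and reads were 50 bp, per the labels. No total read count is given, so depth is unknown. Promoter sequences are RefSeq's (GRCm38.p6). Values of some genes in the marker and regulator lists are not reported here.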

Additional observations from a re-analysis of the deposited data

Results flagged for a closer look

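In 9 of 93 groups of 4 libraries, 1 library stood far from the other 3 (Dixon's test at the 95% level, which marks about 1 in 20 groups by chance). On summit reads these were diabetic IL-1β 2 at the Egr1 main region (80.4 against 100.6 to 103), diabetic IL-1β 1 at Ier2 (107 against 83.2 to 87.1), control IL-1β 2 at Nr4a1 (100.2 against 84.2 to 85.7) and diabetic baseline 1 at Egr3 (73.5 against 53.8 to 57.0). At the Egr1 region 5457 bp below the body diabetic baseline 2 had 41.1 reads against 32.0 to 33.4. At the Nr4a2 body region diabetic IL-1β 4 had 58.2 reads against 45.4 to 45.8, and control baseline 1 had 23.6 against 32.5 to 33.4. On window reads control IL-1β 3 at Egr3 had 436 against 380.1 to 387, and control baseline 3 at Nr4a3 had 948 against 1026 to 1040.4.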

How the results depend on the processing

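The 1 member region that passed on summit reads over both phenotypes became 3 with cyclic loess scaling, 4 with scaling to the genome background, 8 on the deposited fold, 2 on the sum of summits, 3 with regions in at least 12 libraries, 4 with 50 kb around the body, 3 with the replicate block, and 1 to 4 without 1 library each. In diabetic mice 0 became 1 on the sum of summits, in at least 12 libraries, with 50 kb and with the replicate block, and 0 to 1 without 1 library. In control mice 0 became 1 with loess, background scaling, 50 kb and the replicate block, 4 on the fold, 2 in at least 12 libraries, and 0 to 1 without 1 library. On window reads 14 became 7 with background scaling, 8 with 0 kb, 23 with 50 kb and 10 to 15 without 1 library; the 6 in diabetic mice became 0 with background scaling; the 11 in control mice became 6 with background scaling and with 0 kb, and 6 to 14 without 1 library; diabetic against control at baseline gave 0 to 5. The cause was not tested. These counts are out of the 28 shared member regions, except where the set of regions itself changed. It was 35 regions with at least 12 libraries, and other sets with 0 kb or 50 kb around the body. Where given in the Results, the shares of all regions stand beside the counts. Without its share, a count here is not a result about the members.

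The sign turned on the deposited fold at the main regions of Egr1 (0.51), Egr2 (0.093), Nr4a1 (0.50), Nr4a2 (0.14), Nr4a3 (0.16) and Ier2 (0.36) and at the next Ier2 region (0.45). It turned at Egr3 with loess (−0.0040) and background scaling (−0.24), and at Ier3 with loess (−0.016), background scaling (−0.27), the sum of summits (−0.13) and a −log10 q of at least 5 (−0.0036). Background scaling also turned Egr1 5457 bp below the body (−0.0008), the Ier3 3′ region (−0.14) and the Ier3 window (−0.13). That scaling moves all regions alike, with a median change over all shared regions of −0.24 on summit reads and −0.15 on window reads. The turns under it are therefore not particular to the members. Without 1 library each, changes near 0 ranged from −0.015 to 0.077 (Egr3), −0.061 to 0.091 (Nr4a2), −0.072 to 0.062 (Nr4a3), −0.098 to 0.085 (Ier3) and −0.028 to 0.074 (Ier3 window).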
